A study of Triticum aestivum with 14 samples.

Results

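Whole wheat florets labelled F5 were set against whole florets labelled F1, gene by gene, in 6 of the 14 bulk RNA-seq libraries of the series. The members were all libraries whose titles carry F5 (n = 3) or F1 (n = 3). Of the 100591 genes in the deposited table, 70221 had enough counts in these libraries to be tested. Both groups came from untreated central spikelets of Triticum aestivum, labelled N50, taken 21 days after the terminal spikelet stage, so that treatment, spikelet position and sampling day are the same by label. The remaining libraries are from lemma (n = 2), anther (n = 3) and ovary (n = 3) and serve only as background levels. The stated design contrasts fertile with abortive florets, but the labels do not say which of F5 and F1 was fertile. Any difference of position or stage that goes with the numbers 5 and 1 cannot be told apart from fertility. Whether the replicates come from different plants is not stated, so p-values measure only the spread between these samples, which may be technical.

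A wheat spikelet forms florets one after another along a short axis, and the florets at its base are the oldest. Each floret holds leaf-like bracts (lemma and palea), anthers and an ovary, and many of the florets that a spikelet starts stop growing before flowering. Growing organs are rich in transcripts for chromosome copying, division and ribosome building. Ageing or dying plant tissue is known for nucleases, proteases and chlorophyll breakdown, and mature bract tissue for photosynthesis and thickened, waxed walls.

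In F5, genes of DNA repair, division, chromatin modification, RNA silencing and ribosome building were lower more often than tested genes in general. Lower calls of division genes were few among members of at least 5 FPKM. Xylan synthesis, xyloglucan remodelling, serine protease inhibitors, NADPH oxidases, terpene synthases and sulfotransferases were higher more often than tested genes in general. All of these except xylan synthesis are lists added later, with earlier results of these data known. Their shares therefore describe the genes and cannot show that such groups stand out. In all, 16958 genes were called (24.1% of those tested), 7332 higher in F5 (10.4%) and 9626 lower (13.7%). The call needed edgeR's quasi-likelihood test with a Benjamini-Hochberg adjusted p below 0.05 over all tested genes, and a change of at least 2-fold. Of the called genes, 2917 were higher and 5606 lower by at least 4-fold. The median log2 fold change (F5 over F1) of all tested genes was -0.05. With limma on log2(FPKM + 0.1), 5897 were higher and 13447 lower, a larger excess of lower genes. The library-scaled counts of the 3 F5 and 3 F1 libraries did not overlap for 16710 of the called genes (98.5%). A call already needs the groups to lie apart, so this share is no further support. The share over all tested genes was not counted.

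Library totals were 100415586 to 105526441 counts in F5 and 75016595 to 79847721 counts in F1. Across genes, which are not independent replicates, the correlation of log levels was 0.955 to 0.962 between F5 libraries and 0.910 to 0.950 between F1 libraries. F1 replicate 1 was the outlying one, at 0.915 and 0.910 with the other F1 libraries, while pairs of an F5 and an F1 library lay between 0.757 and 0.828. Without F1 replicate 1, 20310 genes were called, 9827 higher and 10483 lower. Levels below are the authors' FPKM, fragments scaled to gene length and library size, and folds are from edgeR on TMM-scaled counts. The scaling matters: over 41468 genes of at least 1 FPKM in both groups, the log2 ratio of mean FPKM lay a median of 0.26 below the edgeR log2 fold change (-0.26). Wheat has near-identical gene copies on its A, B and D subgenomes, and reads shared between copies could have been split by the authors' counting, so single members of a homoeologous set are less certain than the set. The shares called were similar on the subgenomes, at 10.5% higher and 14% lower on A, 10.2% and 13.3% on B, and 10.7% and 14.1% on D.

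Genes that mark a single organ moved strongly. Of 1425 tested genes at least 10-fold higher in anther than in lemma and ovary, with at least 10 FPKM in anther, 26 rose and 1002 fell in F5 (70.3% lower). Their median log2 fold change was -5.39. The table holds 1721 such genes, tested or not, and 733 of these had 0 counts in all F5 libraries. Any of the 733 that were tested passed the count filter through F1 alone and could only fall. This raises the share lower and deepens the median. All 1721 genes together took 0.228%, 0.235% and 0.219% of counts in F5 replicates 1 to 3, against 0.396%, 0.943% and 1.8% in F1 replicates 1 to 3. They took 21.3% in anther libraries on average. Thus the groups did not overlap, and F1 replicate 1 lay nearest to F5. Of 859 ovary-dominant genes, chosen in the same way, 25 rose and 708 fell (82.4% lower), with shares of 0.587%, 0.477% and 0.549% in F5, against 1.49%, 2.06% and 2.16% in F1. In bulk samples, fewer cells of a type and less RNA per cell cannot be told apart. Of 1788 lemma-dominant genes, 446 rose and 70 fell. Their share of counts was 18.5%, 20.8% and 19.6% in F5, against 18.2%, 12.6% and 9.18% in F1, and F1 replicate 1 again lay next to F5. The count of lemma-dominant genes that rose was 880 without F1 replicate 1 and 188 to 267 without any other single library. The count that fell was 38 without F5 replicate 1, 41 without F5 replicate 3 and 44 without F1 replicate 2. The part of organ make-up in the results below was not tested.

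**Figure D1:**
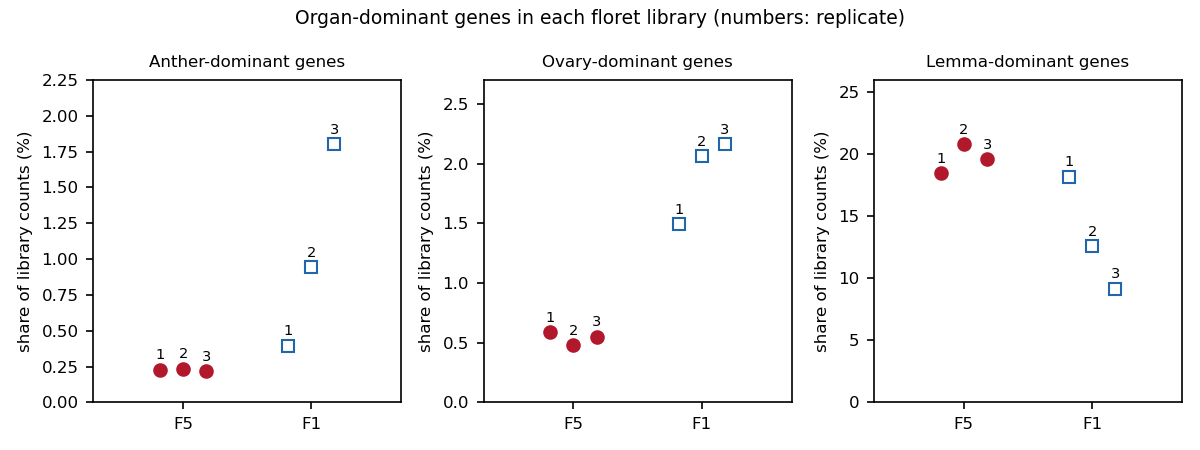
Share of each floret library's counts (y axis, percent) taken by genes dominant in anther, ovary or lemma, 1 point per library, with F5 on the left and F1 on the right and replicate numbers beside the points. Anther- and ovary-dominant genes took less in all 3 F5 libraries, and F1 replicate 1, at 18.2%, sat beside F5 for lemma-dominant genes.

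Descriptions name few organ markers. The single tested gene with an anther term in its description had 0.0206, 0.409 and 0 FPKM in F5 and 11.7, 14.4 and 7.69 FPKM in F1. The 135 green tissue genes (light-harvesting proteins, the small Rubisco subunit and photosystem subunits) included 39 that rose and 0 that fell. The higher count was 98 without F1 replicate 1, but 12, 15 and 15 without F5 replicates 1, 2 and 3, 10 without F1 replicate 2 and 19 without F1 replicate 3. Their summed level was 42870 to 47860 FPKM in F5 and 16970 to 39650 FPKM in F1.

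By the organ with the highest mean, 53% of genes higher in F5 peaked in lemma, 16.8% in anther and 27.9% in ovary. Genes lower in F5 peaked in lemma in 6.97% of cases, in anther in 27.7% and in ovary in 65.3%, against 27.7%, 26% and 46% of all tested genes. A large group was high in F5 alone: for 2693 of the 7332 higher genes (36.7%), the F5 mean was at least 1 FPKM and at least 2-fold above the F1 mean and above every organ mean. Only 107 of the 9626 lower genes (1.11%) were that far above all other groups in F1.

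The largest changes among described genes show both patterns. The NAC transcription factor gene TraesCS5B02G142100 (chromosome 5B, 267777723 to 267779485, minus strand, on a build not given in the sources used here) had 46.3, 46.1 and 17.7 FPKM in F5 and 0.0444, 0.049 and 0.27 FPKM in F1. NAC proteins are plant transcription factors, several of which act in senescence and wall thickening. Its log2 fold change was 8.49 ± 0.782 (SE, edgeR adjusted p = 0.00086), and all 3 organ means were under 0.1 FPKM. Its relative on 5A, TraesCS5A02G143200, had 34.4, 36.6 and 15.9 FPKM in F5 and 0.114, 0.195 and 0.226 FPKM in F1. In both genes F5 replicate 3 was the lowest of its group and still far above every F1 library. Next to them stood xyloglucan-modifying enzymes, 3 dirigent proteins (which steer the coupling of phenolic radicals), 2 peroxidases and 2 lipid-transfer proteins.

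On the lower side stood defensins, small secreted antimicrobial peptides, of 2 kinds. TraesCS1D02G052900 (chromosome 1D, 33705560 to 33706322, plus strand, build not given) had 0.276, 0.31 and 0.298 FPKM in F5 and 90.4, 92.1 and 80.4 FPKM in F1, and averaged 181 FPKM in ovary. Its log2 fold change was -7.92 ± 0.179 (edgeR adjusted p = 6.68e-05). TraesCS2B02G062100 had 0 FPKM in every F5 library and 1.97, 8.81 and 27 FPKM in F1, which is at least 900-fold lower in F5 with 3 counts taken as the total of the F5 libraries. It averaged 221 FPKM in anther. The ovary defensin was nearly even over the F1 libraries, whereas the anther defensin was lowest in F1 replicate 1 and highest in F1 replicate 3. The same order of F1 libraries held for the 4 profilins, 3 peroxidases and the actin-depolymerizing factor among these genes, all of which averaged over 300 FPKM in anther. Profilin and actin-depolymerizing factors control actin filaments and are abundant in pollen.

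**Figure D2:**
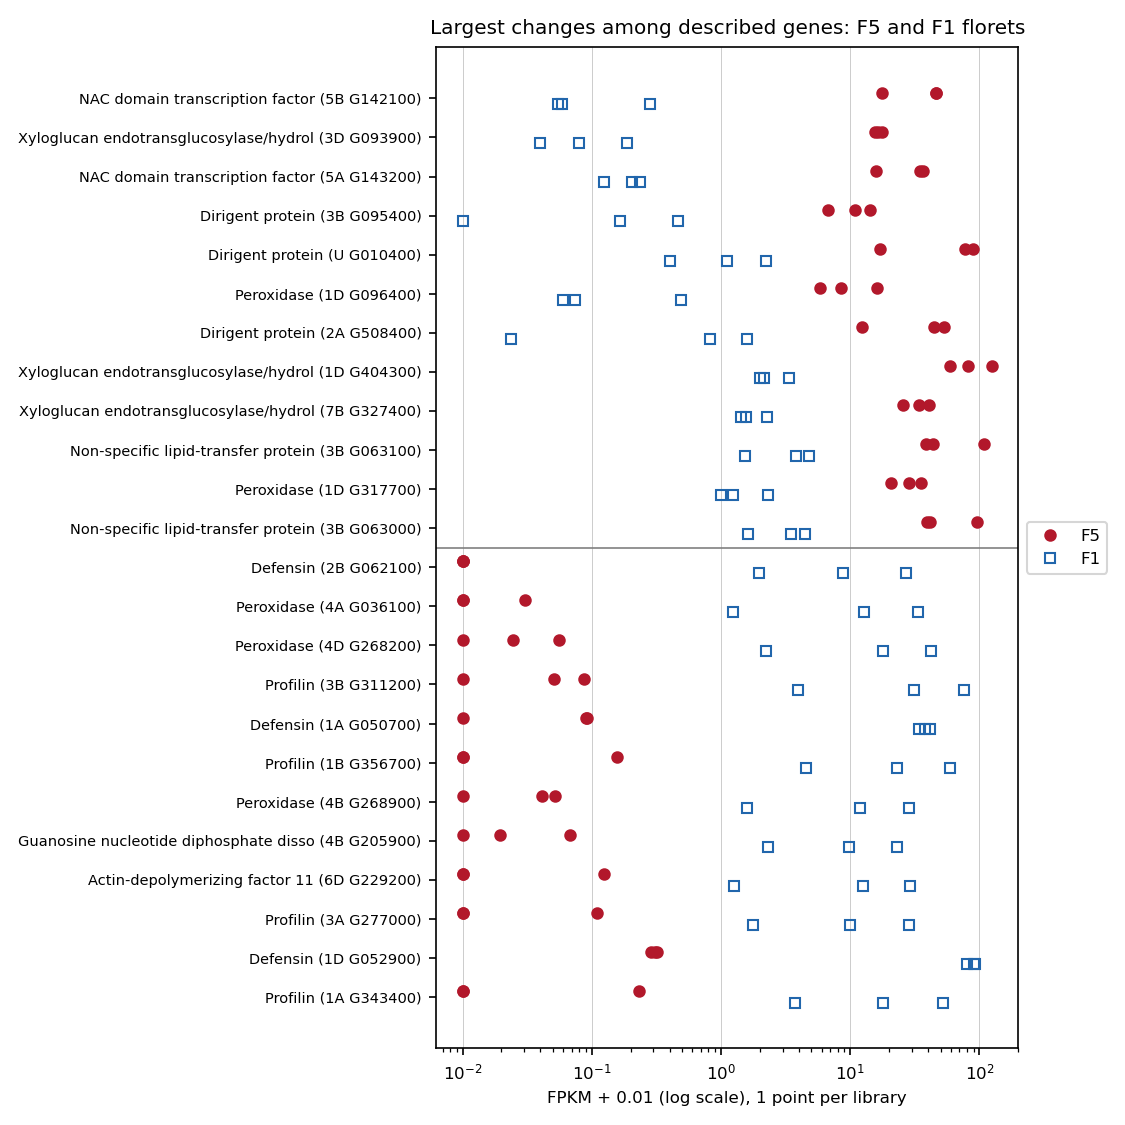
FPKM + 0.01 (x axis, log scale) of the 12 described genes with the largest rise (upper block) and the 12 with the largest fall (lower block) in F5 against F1, filled circles for the 3 F5 libraries above open squares for the 3 F1 libraries. Non-overlap of the groups was a condition for choosing the 24 genes. Most lower genes are at or near 0 in F5 and spread widely over F1.

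More division genes fell than rose, mostly genes of low level, with exceptions that stood out. Of 273 tested genes annotated to mitosis, the spindle or cytokinesis, 7 rose and 110 fell (40.3% lower), and the median log2 fold change was -0.49. Among members of at least 5 FPKM, 5 rose and 2 fell, and the median was -0.26. Over all genes of that level, 2335 rose and 2248 fell. The lower count of the list was 62 with limma on log2(FPKM + 1) and 35 on quantile-normalized values. Of 163 kinesins, motors that move along microtubules, 23 rose and 75 fell. Their median was -0.81 over all tested members but 0.57 among members of at least 5 FPKM, where 6 rose and 0 fell. The kinesin TraesCS1D02G248600 had 0.134, 0.114 and 0.0814 FPKM in F5 and 2.83, 3.11 and 3.28 FPKM in F1 (log2 fold change -4.54 ± 0.236, edgeR adjusted p = 0.000231). TraesCS7D02G271200, a kinesin named after its values were seen, went the other way, with 43.7, 33.9 and 49.1 FPKM in F5 and 11.4, 6.47 and 6.38 FPKM in F1 (2.64 ± 0.315, adjusted p = 0.00189). Summed over the group, the level was 656 to 748 FPKM in F5 and 577 to 604 FPKM in F1.

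Regulators of division split by class, in subgroups that were drawn after the values were seen. All 6 ribonucleotide reductase genes, whose enzyme makes deoxyribonucleotides, fell, with a median of -3.33. TraesCS7B02G031500 had 0.597, 1.32 and 0.577 FPKM in F5 and 9.55, 12.3 and 12 FPKM in F1. All 3 regulatory subunits of cyclin-dependent kinases fell, and TraesCS4A02G410900 had 5.29, 5.2 and 7.71 FPKM in F5 and 20.4, 21.4 and 29.2 FPKM in F1. By contrast, 5 of 6 genes described simply as cyclin rose and 0 fell, but that count was 2 without F5 replicate 1 and 3 without F5 replicate 2 or F1 replicate 3, and 0 with limma on log2(FPKM + 1). On 5A, 5B and 5D, 3 spindle-annotated genes with the same annotation text also rose, of which TraesCS5A02G179700 had 57.3, 38.5 and 79.9 FPKM in F5 and 3.13, 0.638 and 0.37 FPKM in F1. Their annotation includes activation of protein kinase activity, and the call of the 5B gene TraesCS5B02G177500 was lost without F1 replicate 2.

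Repair pathways fell as broadly. In KEGG non-homologous end-joining, 0 of 29 tested genes rose and 15 fell (median -1.14), and in mismatch repair 4 of 194 rose and 86 fell (-0.95). Base excision repair had 9 higher and 63 lower of 146 (-0.74), homologous recombination 15 and 130 of 375 (-0.97), and nucleotide excision repair 10 and 78 of 273 (-0.45). The small counts of higher genes in these pathways moved by over 1.5 times when single libraries were left out, for instance to 9 in mismatch repair without F1 replicate 1, whereas the lower counts did not. These pathways share polymerase and replication-factor genes with DNA replication, where 113 of 204 fell.

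Chromatin modification moved mostly down. Of 164 genes annotated to DNA or histone methylation, 2 rose and 47 fell (28.7%). Without nucleosome-linked members, 35 of 120 fell. Nucleosome-linked here means annotated to the nucleosome, its assembly, the chromosome or protein heterodimerization. Among 7 tested DNA cytosine methyltransferases, a subgroup drawn after the values were seen, 2 rose and 4 fell. TraesCS2A02G235900 had 0.0828, 0.516 and 0.114 FPKM in F5 and 6.93, 10.2 and 10.4 FPKM in F1, a log2 fold change of -5.01 ± 0.723 (edgeR adjusted p = 0.00354). TraesCS4B02G201800 of the same family had 7.9, 7.36 and 6.79 FPKM in F5 and 2.39, 2.26 and 2.67 FPKM in F1 (1.85 ± 0.12, adjusted p = 0.00035). Members of this family thus lay apart in both directions with no overlap between the groups. Of 45 chromatin remodelling genes, 0 rose and 7 fell (15.6%), near the 13.7% of all tested genes.

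RNA silencing, in which Argonaute proteins use small RNAs to find their targets, had 5 higher and 29 lower of 114 tested genes (25.4% lower, median -0.43). Argonaute 4 (TraesCS3A02G188400), which directs DNA methylation by small RNAs in Arabidopsis, had 9.9, 8.66 and 5.97 FPKM in F5 and 38.6, 51.9 and 55.3 FPKM in F1 (-2.30 ± 0.227, edgeR adjusted p = 0.00103). A silencing-annotated gene chosen after its values were seen, TraesCS7D02G298100, had 9.07, 10.8 and 10.7 FPKM in F5 and 126, 169 and 161 FPKM in F1. The second gene averaged 348 FPKM in ovary, and both were higher in ovary than in any floret library.

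Ribosome building showed many small decreases. Of 552 rRNA processing genes, 21 rose and 113 fell (20.5% lower, median -0.54), and the higher count was 35 without F1 replicate 1. The ribosome assembly factor mrt4 gene TraesCS5B02G152500 had 17.7, 13.5 and 15.8 FPKM in F5 and 42.3, 44.1 and 46.5 FPKM in F1 (-1.23 ± 0.143, edgeR adjusted p = 0.00165). Among genes annotated to the nucleolus, 154 of 290 fell, but 44 of 173 without nucleosome-linked members, an exclusion added after the data were seen. RNA splicing stayed closer to the background, with 30 higher and 89 lower of 817 (10.9% lower).

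Genes of oxidative phosphorylation, the proteasome, autophagy and the tricarboxylic acid cycle were called rarely. Oxidative phosphorylation had 0 higher and 1 lower of 79 tested genes by edgeR (median -0.27), and the proteasome 0 and 7 of 109 (-0.30). Few calls did not mean equal FPKM. Over genes of at least 1 FPKM in both groups, FPKM ratios lay a median of 0.26 below the edgeR log2 fold change (-0.26). That difference of scale widens the gaps in the sums that follow. Summed oxidative phosphorylation genes had 1452 to 1789 FPKM in F5 and 2103 to 2424 FPKM in F1. The proteasome sum was 1358 to 1584 FPKM in F5 and 2008 to 2285 FPKM in F1. Autophagy, which recycles cell contents through the vacuole, had 5 higher and 0 lower of 125, a count that lay between 2 and 9 when single libraries were left out. Autophagy-related protein 7c (TraesCS3A02G220600) had 10, 9.31 and 4.23 FPKM in F5 and 5.59, 3.6 and 3.47 FPKM in F1, so the groups overlapped. The tricarboxylic acid cycle had 7 higher and 15 lower of 204. Without F1 replicate 1, 15 were higher. Glycolysis, by contrast, was called about as often as all tested genes, with 50 higher and 64 lower of 478 (10.5% and 13.4%). Its higher count was 71 without F1 replicate 1 and 23 without F1 replicate 2.

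**Figure D3:**
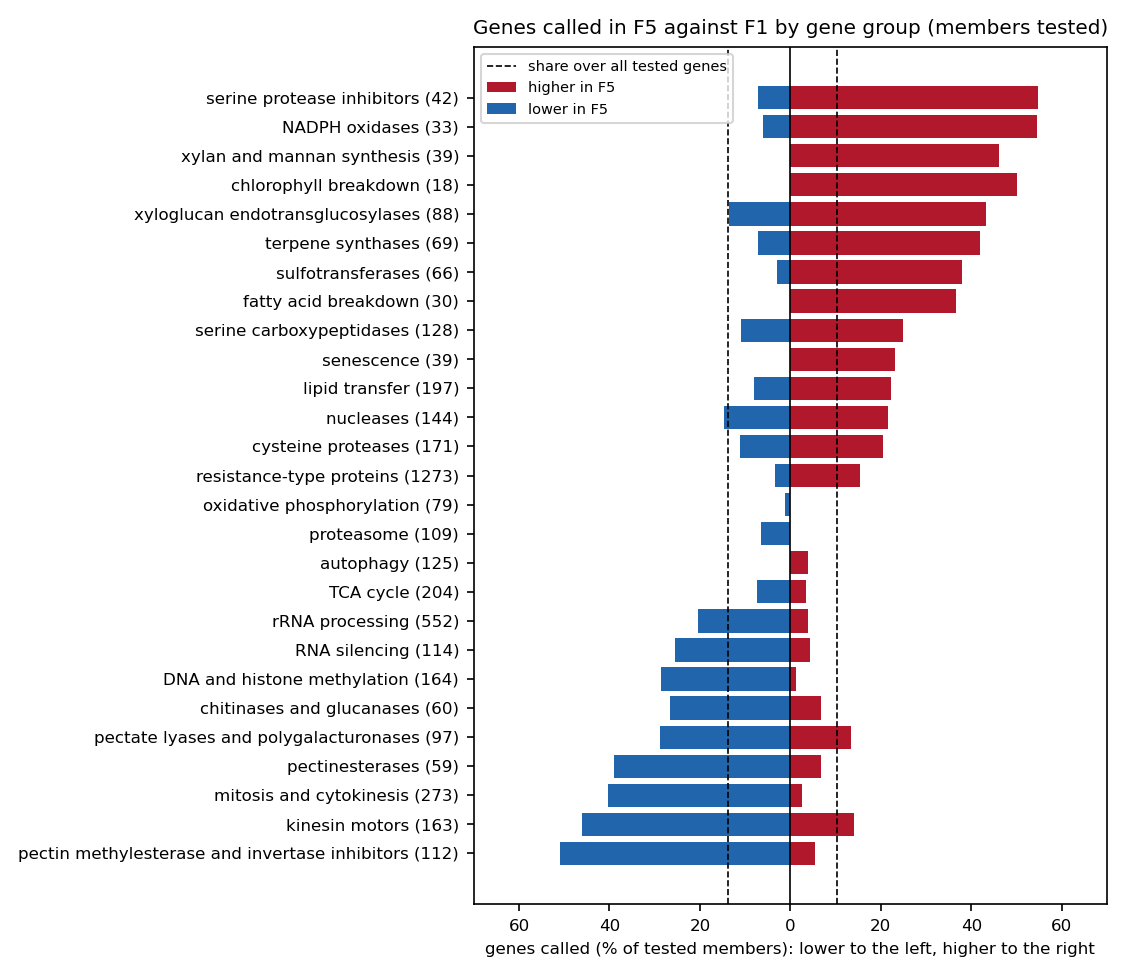
Share of tested members called higher (bars to the right) or lower (bars to the left) in F5 against F1, in percent. The 27 gene groups were picked by hand from 88, with tested members in brackets. Dashed lines give the shares over all tested genes, 10.4% higher and 13.7% lower. Xylan, xyloglucan, NADPH oxidase, terpene synthase and serine protease inhibitor groups extend right of the line, division and pectin groups left of it. Groups not drawn include thioredoxin and glutaredoxin (2.5% higher, 22.5% lower) and cysteine protease inhibitors (9.52% and 14.3%).

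Transcription factor families differed in direction. Only members found by their annotation text were counted, and 14.4% of tested genes have a description, so the counts are not of whole families. Of 13 tested NAC genes with a description, 7 rose and 0 fell (53.8%). RNAC1 (TraesCS2D02G324700) had 14.6, 14.1 and 11 FPKM in F5 and 5.62, 6.12 and 5.13 FPKM in F1. Of 33 MYB genes, 9 rose and 3 fell (median 0.59). In the stress-linked WRKY family 1 of 16 rose and 0 fell, below the 24.1% called of all tested genes.

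MADS-box genes, which set floral organ identity, had 3 higher and 12 lower of 27 (44.4% lower, median -1.47), and 1 higher without F1 replicate 3. WM4 (TraesCS4D02G245200, chromosome 4D, 410402571 to 410413185, plus strand, build not given) had 49.7, 48.3 and 49.7 FPKM in F5 and 5.32, 4.16 and 3.94 FPKM in F1, a log2 fold change of 3.72 ± 0.183 (edgeR adjusted p = 0.000218). Of the described members that fell, the most abundant in F1 was TraesCS5A02G286800 (chromosome 5A, 494862838 to 494871118, plus strand), with 6.75, 8.13 and 3.29 FPKM in F5 and 76.5, 74.4 and 92.9 FPKM in F1 (-3.48 ± 0.331, adjusted p = 0.000937). An APETALA3-like gene, TraesCS7D02G380300, of the class that specifies petals and stamens, had 3.44, 5.34 and 4.39 FPKM in F5 and 31.7, 58.5 and 75.8 FPKM in F1. It averaged 144 FPKM in anther and 121 FPKM in ovary. Both lower genes were thus several-fold below F1 in every F5 library, and WM4 was above F1 and every organ mean.

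Growth-regulating factors, which promote cell proliferation in leaves and flowers, had 2 higher and 8 lower of 18 (median -1.0). The lower count was 4 without F5 replicate 1 and 5 without F5 replicate 2, F1 replicate 2 or F1 replicate 3. Only 1 higher call was left without F5 replicate 2, F5 replicate 3 or F1 replicate 3. Growth regulating factor 6-A1 (TraesCS4A02G255000) had 0.915, 0.82 and 0.931 FPKM in F5 and 4.61, 4.26 and 4.36 FPKM in F1 (-2.05 ± 0.157, edgeR adjusted p = 0.000511). Growth regulating factor 4-A1 (TraesCS2A02G435100) had 1.59, 1.73 and 3.72 FPKM in F5 and 0.557, 0.573 and 0.348 FPKM in F1 (2.51 ± 0.442, adjusted p = 0.00693). The BEL1-type homeodomain gene TraesCS7A02G358300 fell by 5.73 on the log2 scale (adjusted p = 0.00447).

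**Figure D4:**
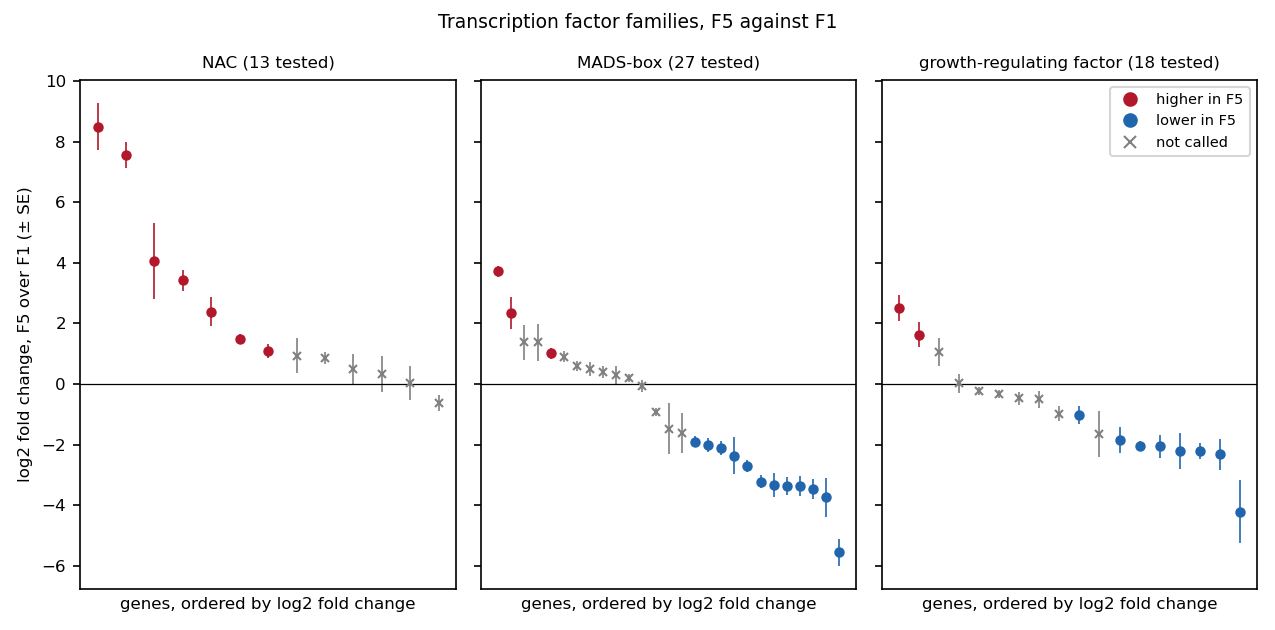
Log2 fold change, F5 over F1, with its SE (y axis) for the tested NAC, MADS-box and growth-regulating factor genes found by annotation text. These are not whole families. Genes are ordered from highest to lowest within a family (x axis), with filled circles for genes called by edgeR and crosses for others. NAC calls are all on the higher side, while 12 of 27 MADS-box and 8 of 18 growth-regulating factor genes are called lower.

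Xylan synthesis and xyloglucan remodelling rose, whereas pectin enzymes and cellulases had more lower than higher calls. Of 39 genes of xylan and mannan synthesis, the main hemicelluloses of thickened walls, 18 rose and 0 fell (46.2%, median 0.85). For 14 of the 18, the F5 mean was at least 2-fold above F1 and every organ, against 3443 of the 7332 higher genes overall. GXM1 (TraesCS5D02G319700), described by the name of a glucuronoxylan methyltransferase, had 39.8, 34.8 and 54.2 FPKM in F5 and 19.9, 12.5 and 16.3 FPKM in F1 (1.67 ± 0.253, edgeR adjusted p = 0.00417). TraesCS7D02G549800, a xylan gene chosen after its values were seen, had 52.4, 44.2 and 84.8 FPKM in F5 and 14.9, 7.08 and 6.79 FPKM in F1. The groups did not overlap in either gene. The summed level of the group was 485 to 742 FPKM in F5 and 183 to 268 FPKM in F1.

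Xyloglucan endotransglucosylases cut and rejoin the xyloglucan that ties cellulose together. Of 88, 38 rose and 12 fell (median 1.19), and the lower count was 7 without F5 replicate 1. TraesCS1D02G404300 had 81.1, 59.5 and 125 FPKM in F5 and 3.34, 2.15 and 2.01 FPKM in F1 (5.41 ± 0.413, adjusted p = 0.000529 by edgeR). TraesCS5D02G209700 had 0.139, 0.281 and 0.231 FPKM in F5 and 5.74, 5.71 and 4.61 FPKM in F1 (-4.34 ± 0.314, adjusted p = 0.00045). Different members of the family were thus high in the 2 groups, and 6 of the 12 lower ones were ovary-dominant. GO cellulase activity, in glucan-cutting enzymes, had more members lower than higher, with 6 higher and 17 lower of 31 (median -1.62), but 4 were higher and 0 lower among members of at least 5 FPKM. The summed level of the term was 310, 276 and 360 FPKM in F5 and 234, 221 and 205 FPKM in F1, higher in every F5 library. Fasciclin-like proteins are adhesive wall glycoproteins: FLA15 (TraesCS1A02G396800) had 71.3, 60.9 and 93.7 FPKM in F5 and 38.2, 33.4 and 27.4 FPKM in F1, and FLA33 (TraesCS6A02G287600) had 0, 0.052 and 0.0981 FPKM in F5 and 5.64, 6.87 and 6.61 FPKM in F1.

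Pectin enzymes and the inhibitors named after them had more lower than higher calls, and many of the lower genes were anther-dominant. Of 112 pectin methylesterase and invertase inhibitors, 6 rose and 57 fell (50.9% lower, median -2.07), 46 of the 57 being anther-dominant. The lower count was 37 without F5 replicate 1. Their summed level was 235 to 360 FPKM in F5 and 269, 643 and 1124 FPKM in F1 replicates 1 to 3, so F1 replicate 1 lay within the range of F5. Pectinesterases, which remove methyl groups from pectin, had 4 higher and 23 lower of 59 (11 of the 23 anther-dominant). Their median of -0.95 turned positive among members of at least 5 FPKM, of which 1 was higher and 0 lower. The summed level of all tested members was 52.9 to 66 FPKM in F5 and 66.8 to 133 FPKM in F1. Pectate lyases and polygalacturonases, which cut pectin, had 13 and 28 of 97 (19 of the 28 anther-dominant). Their median of -0.38 took the same turn, with 4 higher and 0 lower among members of at least 5 FPKM. Their summed levels overlapped, at 283.5, 243.3 and 337.9 FPKM in F5 and 219.5, 295.2 and 429.5 FPKM in F1. Against the direction of most calls, the pectinesterase TraesCS5D02G053200 had 10.7, 7.1 and 13.2 FPKM in F5 and 0.988, 1.74 and 2.03 FPKM in F1 (2.98 ± 0.338, edgeR adjusted p = 0.00162).

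Genes for breaking down nucleic acids rose in 2 subgroups drawn after the values were seen, whereas the full nuclease list had 31 higher and 21 lower of 144. Of 21 tested genes annotated to ribonuclease T2 activity, secreted or vacuolar enzymes that degrade RNA, 14 rose and 0 fell (median 3.17). Their summed level was 502, 480 and 398 FPKM in F5 and 105, 107 and 123 FPKM in F1, beside 140 FPKM in lemma, 94.8 FPKM in anther and 87.6 FPKM in ovary. TraesCS1D02G149700 had 47, 40.1 and 96.1 FPKM in F5 and 0.102, 0.28 and 0.107 FPKM in F1 (log2 fold change 8.77 ± 0.624, edgeR adjusted p = 0.000446). Of 22 endonucleases annotated to DNA catabolism, 13 rose and 0 fell (median 2.41), with summed levels of 451, 444 and 380 FPKM in F5 and 104, 58.1 and 62.7 FPKM in F1. TraesCS3A02G044000 had 150, 141 and 146 FPKM in F5 and 38.6, 17.9 and 15.2 FPKM in F1 (2.85 ± 0.399, adjusted p = 0.00317). Both subgroups were higher in every F5 library than in any F1 library. Among the lower nucleases was Flap endonuclease 1 (TraesCS1B02G377800), an enzyme of replication and repair, at 2.85, 2.51 and 2.26 FPKM in F5 and 9.15, 12.3 and 12.1 FPKM in F1.

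Proteases were mixed. Cysteine proteases had 35 higher and 19 lower of 171, and for 32 of the 35 the F5 mean was at least 2-fold above F1 and all organs, while 9 of the 19 were anther-dominant. TraesCS3A02G348500, chosen after its values were seen, had 133, 147 and 54.2 FPKM in F5 and 11.5, 7.71 and 7.37 FPKM in F1. Serine carboxypeptidases, which trim proteins in the vacuole and wall, had 32 higher and 14 lower of 128 (25% higher, median 0.41). TraesCS6A02G036100 had 121, 89 and 46.9 FPKM in F5 and 12.2, 8.05 and 7.96 FPKM in F1 (3.44 ± 0.398, edgeR adjusted p = 0.00171). TraesCS6A02G356500 had 0.0629, 0.152 and 0.411 FPKM in F5 and 8.83, 9.25 and 8.66 FPKM in F1. Aspartic proteases were called about equally in both directions, 41 higher and 46 lower of 238.

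Serine protease inhibitors had 23 higher and 3 lower of 42 (54.8% higher, median 2.53). The higher count was 14 without F5 replicate 2 or without F1 replicate 2. Their summed level was 452, 551 and 470 FPKM in F5 and 113, 183 and 243 FPKM in F1. Wali5 (TraesCS1D02G265800) had 18.5, 21.8 and 7.01 FPKM in F5 and 0.693, 3.02 and 4.31 FPKM in F1 (2.84 ± 0.678, edgeR adjusted p = 0.0189), a call lost without F5 replicate 1, F5 replicate 2 or F1 replicate 2. Cysteine protease inhibitors had 2 higher and 3 lower of 21.

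Chlorophyll breakdown genes had 9 higher and 0 lower of 18 (50%, median 0.97). The group holds 11 chlorophyllases, counted apart after the values were seen, 5 of them higher, and also kinase-like sensor genes that share the annotation. The chlorophyllase TraesCS6D02G135300, named after its values were seen, had 8.4, 8.35 and 8.84 FPKM in F5 and 0.625, 0.82 and 0.742 FPKM in F1 (3.80 ± 0.168, edgeR adjusted p = 0.000173). Genes annotated to senescence had 9 higher and 0 lower of 39. The zinc finger gene TZF1 (TraesCS3A02G107200) had 17, 27.9 and 23.7 FPKM in F5 and 4.11, 8.16 and 12.5 FPKM in F1, and a senescence-associated protein gene, TraesCS7D02G531600, had 12.5, 12.3 and 13.9 FPKM in F5 and 3.21, 1.23 and 0.755 FPKM in F1. F5 was above F1 in every library for both.

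Defence-linked and redox families differed in direction. NADPH oxidases, which make superoxide at the cell surface, had 18 higher and 2 lower of 33 (54.5% higher, median 1.16). The 2 lower members were anther-dominant, and neither was called without any 1 of the F5 libraries. TraesCS3A02G280200, chosen after its values were seen, had 12.3, 13.5 and 13.6 FPKM in F5 and 4.15, 3.19 and 3.19 FPKM in F1 (2.16 ± 0.169, edgeR adjusted p = 0.000538). Catalase (TraesCS6A02G041700), which destroys hydrogen peroxide, had 268, 335 and 316 FPKM in F5 and 157, 73.7 and 65.6 FPKM in F1. Superoxide dismutases had 8 higher and 0 lower of 29, a count of 15 without F1 replicate 1 and 5 without F1 replicate 2. The thioredoxin and glutaredoxin list had 1 higher and 9 lower of 40 (22.5% lower), and 6 of the 9 are the ribonucleotide reductases given above. Glutathione S-transferases had 1 higher and 0 lower of 17, and described cytochrome P450 genes 1 and 1 of 17.

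Terpene synthases, which build volatile and defence terpenes, had 29 higher and 5 lower of 69 (42% higher, median 1.49). The higher count was 18 without F1 replicate 2, the lower 2 or 3 without single libraries other than F1 replicate 1, and 25 of the 29 were at least 2-fold above F1 and all organs by mean FPKM. TraesCS1A02G008600 had 39.1, 30.1 and 36.9 FPKM in F5 and 8.64, 5.72 and 5.74 FPKM in F1 (2.66 ± 0.24, edgeR adjusted p = 0.000827). TraesCS7D02G463500, chosen after its values were seen, had 8.08, 26.9 and 1.83 FPKM in F5 and 0 in every F1 library, at least 2100-fold higher in F5 with 3 counts taken for the F1 libraries together. Its F5 libraries differed widely from each other. Sulfotransferases, which add sulfate groups to small molecules, had 25 higher and 2 lower of 66 (median 1.19). TraesCS2D02G372000 had 31.5, 31.8 and 22.7 FPKM in F5 and 0.87, 2.18 and 3.71 FPKM in F1 (3.95 ± 0.481, adjusted p = 0.00202).

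Resistance-type proteins, the nucleotide-binding receptors of plant immunity, had 196 higher and 42 lower of 1273 (15.4% higher, median 0.34), and 126 higher without F5 replicate 1. With limma on log2(FPKM + 1) 39 were higher, when 3341 of all 70221 tested genes were, and 62 on quantile-normalized values, when 4360 were. Both are smaller shares than over all tested genes, so the excess of higher members depended on the pseudocount and the scaling. PM3CS (TraesCS1A02G008100) had 3.83, 2.99 and 2.13 FPKM in F5 and 0.838, 1.23 and 1.26 FPKM in F1. Chitinases and related glucanases, enzymes that cut fungal walls, had 4 higher and 16 lower of 60 (median -0.59, positive among members of at least 5 FPKM). Without F5 replicate 1 or F1 replicate 2 there was 1 higher call, and 2 without F5 replicate 2. The chitinase TraesCS3B02G293200 had 8.1, 12.5 and 9.46 FPKM in F5, against 31.9, 40.3 and 44.7 FPKM in F1 and 101 FPKM in ovary. Its edgeR adjusted p was 0.00159, and the call was lost when all 14 libraries were fitted together.

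Genes annotated to pigments and photorespiration rose, and their counts depended on F1 replicate 1. Photorespiration, which recovers carbon from a side reaction of Rubisco, had 21 higher and 0 lower of 44 (median 1.07), and 18 of the 21 were lemma-dominant. The higher count was 34 without F1 replicate 1 and 3 to 7 without any other single library. Small Rubisco subunit genes, also counted as green tissue above, carry much of this list. Counted apart after the values were seen, 14 of 25 such genes rose, all 14 lemma-dominant. Their mean summed level was 29940 FPKM in F5 and 16920 FPKM in F1, beside 30700 and 17690 FPKM for the photorespiration list. The list thus does not show a rise of the photorespiratory pathway as a whole. The small Rubisco subunit gene TraesCS2A02G066700 had 1060, 1130 and 1140 FPKM in F5 and 873, 530 and 354 FPKM in F1. Its log2 fold change was 1.17 ± 0.361 (edgeR adjusted p = 0.044), lost without any single library other than F1 replicate 1. Chlorophyll synthesis had 14 higher and 0 lower of 43, and 6 to 9 higher without single libraries other than F1 replicate 1. Phytoene synthase 1 (TraesCS7A02G557300), which opens carotenoid synthesis, had 29.8, 25.3 and 33 FPKM in F5 and 16.2, 11.2 and 7.15 FPKM in F1. That call (1.60 ± 0.326, adjusted p = 0.0111) held without any single library.

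Nitrogen assimilation genes moved in both directions. Asparagine synthetases, a subgroup drawn after the values were seen, had 6 higher and 2 lower of 15, and their summed level was 149, 193 and 92.6 FPKM in F5 and 37.9, 42.5 and 57.5 FPKM in F1. The lower count was 1 without F5 replicate 1, F5 replicate 3, F1 replicate 2 or F1 replicate 3. TraesCS4D02G195100 had 26.5, 41 and 6.42 FPKM in F5 and 0.137, 0.877 and 0.852 FPKM in F1 (5.57 ± 0.927, edgeR adjusted p = 0.00567). Glutamine synthetases had 3 higher and 5 lower of 11, yet their summed level was also higher in every F5 library, at 1397, 1410 and 1140 FPKM in F5 and 998, 782 and 609 FPKM in F1. The most abundant, TraesCS2A02G500400, had 563, 601 and 443 FPKM in F5 and 342, 197 and 126 FPKM in F1, a call lost without any F5 library or without F1 replicate 2. The higher count was 0 without F5 replicate 1, F5 replicate 2 or F1 replicate 2, and 1 without F5 replicate 3. TraesCS4D02G047400 had 0.219, 0.42 and 0.565 FPKM in F5 and 8.44, 10.6 and 16.2 FPKM in F1 (-4.58 ± 0.413, adjusted p = 0.000818). Nitrate and ammonium transporters had 0 higher and 4 lower of 13.

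Lipid genes rose more often than the background. KEGG cutin, suberine and wax biosynthesis had 85 higher and 16 lower of 251 (median 0.96), and fatty acid elongation 65 and 12 of 199 (0.96), with 33 higher without F5 replicate 1 or 2 and 42 without F1 replicate 2. The acyl carrier protein gene TraesCS5D02G108700, on whose product fatty acids grow, had 102, 98.9 and 111 FPKM in F5 and 67.5, 38.8 and 36.4 FPKM in F1. The 3-ketoacyl-CoA synthase TraesCS5A02G309100, of the enzymes that lengthen fatty acids, went the other way, with 3.32, 2.39 and 3.3 FPKM in F5 and 9.89, 16.1 and 20.5 FPKM in F1. It averaged 53.8 FPKM in ovary. Fatty acid breakdown had 11 higher and 0 lower of 30 (median 0.67), and 6 higher without F5 replicate 1. Acyl-coenzyme A oxidase TraesCS7A02G223500, which starts that breakdown in peroxisomes, had 17.1, 16.3 and 12.3 FPKM in F5 and 7.09, 6.38 and 6.09 FPKM in F1 (1.48 ± 0.166, edgeR adjusted p = 0.00151).

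Lipid transfer proteins, which carry lipids to the cell surface, had 44 higher and 16 lower of 197, and 10 lower without F5 replicate 1. TraesCS5B02G145900 had 1260, 942 and 751 FPKM in F5 and 143, 76.1 and 48.5 FPKM in F1 (3.71 ± 0.486, edgeR adjusted p = 0.00258), the highest F5 level of any described member that rose. The lipase TraesCS2D02G278500 had 0 FPKM in every F5 library and 5.97, 39.7 and 68.5 FPKM in F1, at least 6860-fold lower in F5 with 3 counts taken for the F5 libraries together. It averaged 560 FPKM in anther and was lowest in F1 replicate 1.

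Transport and signalling lists held strong changes of single genes. Potassium transport had 13 higher and 30 lower of 124, 8 of the 30 anther-dominant. Without F5 replicate 1 the counts were 8 and 19. The potassium transporter TraesCS3A02G458000 had 1.87, 1.72 and 1.65 FPKM in F5 and 9.08, 11.7 and 20.8 FPKM in F1 (-2.71 ± 0.287, edgeR adjusted p = 0.00132). A calcium-dependent protein kinase gene, TraesCS3A02G224900, had 12.4, 10.7 and 8.66 FPKM in F5 and 32.6, 28 and 30.7 FPKM in F1. Abscisic acid, the hormone of drought and dormancy, had 28 higher and 18 lower of 239 annotated genes (11.7% higher), and brassinosteroid 12 and 6 of 120. The medians of both lists, 0.18 and 0.15, changed sign on log2 FPKM. One brassinosteroid-annotated gene chosen after its values were seen, TraesCS2D02G331100, had 16.8, 10.8 and 7.84 FPKM in F5 and 0.0464, 0.23 and 0.18 FPKM in F1 (6.52 ± 0.58, adjusted p = 0.000787).

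Water-stress annotation needs its members named. Of 224 genes with the GO term for response to water deprivation, 21 rose and 116 fell, but 7 of the 108 members without nucleosome-linked annotation fell. The other genes that fell carry nucleosome-linked annotation, as defined above. How many of them are histone genes was not counted. The higher count was 13 without F1 replicate 2. Late embryogenesis abundant proteins, which protect drying cells, had 0 higher and 8 lower of 30, and the dehydrin WZY2 (TraesCS6A02G350700) had 4.55, 1.53 and 1.76 FPKM in F5 and 13.9, 21.9 and 23.6 FPKM in F1. Some of the 8 carry DNA-binding or kinase annotation instead. Heat shock proteins had 0 higher and 4 lower of 12.

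A count over all 130 KEGG pathways with at least 20 tested genes put terpenoid, wax, fatty acid elongation, linoleic acid and branched amino acid pathways at the higher end. Monoterpenoid biosynthesis had 15 higher and 0 lower of 45, and 7 to 9 higher without F5 replicate 1, F5 replicate 3 or F1 replicate 2. Sesquiterpenoid and triterpenoid biosynthesis had 18 higher and 2 lower of 53, whereas diterpenoid biosynthesis, which includes gibberellin steps, had 16 higher and 31 lower of 113 and 20 lower without F1 replicate 2. Degradation of valine, leucine and isoleucine had 55 higher and 13 lower of 182 (median 0.47), of which 34 were at least 2-fold above F1 and all organs. Porphyrin and chlorophyll metabolism had 59 higher and 4 lower of 201, with 38 higher without F5 replicate 1 and 37 without F1 replicate 2.

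**Figure D5:**
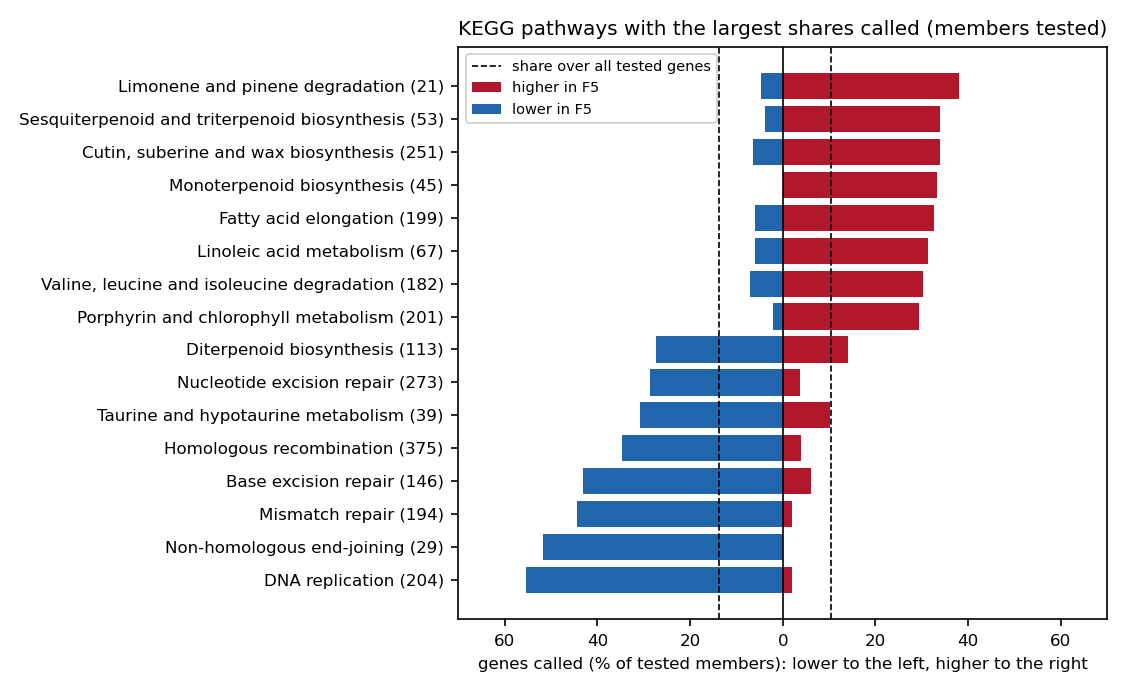
Share of tested members called higher (bars to the right) or lower (bars to the left) in F5 against F1, in percent, for the 8 KEGG pathways with the largest higher share and the 8 with the largest lower share, with members tested in brackets. Dashed lines give the shares over all tested genes, 10.4% and 13.7%; DNA replication and repair pathways fill the lower end.

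Among 525 GO terms with at least 30 tested genes, the apoplast, the space of the cell wall, had 119 higher and 21 lower of 266 (median 1.25). The lower count was 11 without F5 replicate 1. Oxylipin biosynthesis, which makes fatty acid signals such as jasmonate, had 15 higher and 1 lower of 34, and 9 higher without any 1 of the F5 libraries. The term with the largest higher share was hydroquinone:oxygen oxidoreductase activity, held by the same number of genes as lignin catabolism, with 30 higher and 1 lower of 41 (median 2.41). Ammonia-lyase activity, the entry to phenylpropanoids, had 21 higher and 0 lower of 40. At the lower end stood initiation of DNA replication, with 0 higher and 31 lower of 36 (median -4.40), and nucleosome terms, with 450 of 535 lower.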

How the data were processed

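The authors deposited 1 table of whole-number counts and FPKM for 100591 genes in 14 libraries. The submitters' processing notes name Bowtie 0.12.2 and build mm8, a mouse build, so the wheat aligner, build and annotation count as not given in the sources used here. RNA was extracted with Trizol, per the labels. Groups came from the sample titles.

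Deposited counts of F5 and F1 alone were fitted in edgeR 4.0.16 (R 4.3.3): TMM scaling, filterByExpr, robust quasi-likelihood F test, two-sided, with no covariate. The SE is the log2 fold change divided by the square root of F. The deposited FPKM give levels and enter limma 3.58.1 after log2(FPKM + 1) or log2(FPKM + 0.1). DESeq2 1.42.0 was an alternative. Tables were made in Python 3.11.15 with pandas 2.3.3, and edgeR was tested on simulated data. Floors (3 counts) cover counting error only, and totals of 75016595 to 105526441 keep that error small for abundant genes. The SE also holds the spread between libraries.

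Gene groups are text patterns over names, descriptions, GO and KEGG (81 lists, 9 later corrected and 7 added). The added lists are serine protease inhibitors, cysteine protease inhibitors, terpene synthases, NADPH oxidases and sulfotransferases. Xyloglucan endotransglucosylases and the pectin methylesterase and invertase inhibitors were added too. Members and lists were chosen with earlier results of these data known, and no list was tested. Of tested genes 14.4% have a description, 74.5% GO and 31.4% KEGG text. Named genes are the 12 described, non-overlapping genes of at least 10 FPKM with the largest and the 12 with the smallest fold change, the most abundant called member of each list in each direction, and the 8 most abundant called genes in each direction. Others are said to be chosen after their values were seen. TraesCS5A02G179700, TraesCS2D02G324700, TraesCS7D02G380300, TraesCS2A02G435100, TraesCS7D02G531600, TraesCS4D02G195100, TraesCS4D02G047400 and TraesCS1D02G149700 are also outside this rule. Whether the replicate numbers pair samples is not stated. Same-numbered F5 and F1 libraries deviated with correlations of 0.0155, 0.0531 and -0.182, and other F5 and F1 pairs with -0.139 to 0.124. With 3 libraries a side, these values cannot exclude pairing. No sequence is shown, as none was matched to these gene IDs.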

Additional observations from a re-analysis of the deposited data

How the results depend on the processing

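The count of 16958 called genes fell to 4583 (2335 higher, 2248 lower) among genes of at least 5 mean FPKM, where 23259 genes were tested. It was 9179 (3341 and 5838) with limma on log2(FPKM + 1). Quantile-normalized values gave 8552 (4360 and 4192). The DESeq2 Wald test gave 20542 (8999 and 11543), limma on log2(FPKM + 0.1) 19344, all 14 libraries in 1 fit 18828, median-of-ratios scaling 17059 and no filter 16853. Leaving out single libraries gave 12367 to 20310 calls, 5178 to 9827 higher and 7163 to 10483 lower. With the replicate block the count was 13834 (6193 and 7641), and whether the numbers pair the samples is not stated. Of the calls, 43.2% were higher, against 30.5% with limma on log2(FPKM + 0.1). The median log2 fold change of all tested genes moved to -0.15 and -0.27 with limma at pseudocounts of 1 and 0.1. Of 171 named genes, none changed sign under any alternative; 52 lost their call with limma on log2(FPKM + 1), 24 under the replicate block and 9 to 47 without single libraries. The cause of these shifts was not tested.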
